A study of Homo sapiens with 4 samples.

Results

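The AP-1 transcription factor genes JUN, JUNB, JUND, FOS, FOSB, FOSL2 and ATF3 were examined in HUT78 cells with and without the compound CSH71. These 7 genes, of 14884 measured under a symbol, were taken by name from the probe set annotation of the array, and the family was chosen from values of the same 4 arrays: JUN and FOSL2 had already been seen to stand high after CSH71. The CSH71 contrast is therefore given for these genes as a description, and the members' values are not evidence for the choice. HUT78 is a long-established human T-cell line derived from a cutaneous lymphoma. CSH71 is, by the series' account, a chemical that targets the part of p38γ that binds lipids, p38γ being a mitogen-activated protein kinase. Total RNA of 2 untreated samples and of 2 samples given CSH71 at 250 nM for 30 h was measured on whole-transcript Affymetrix arrays. The labels mention no vehicle for the untreated samples and do not say that the duplicates were separate cultures, so the spread between them may be technical. All results come from this 1 line, at 1 dose and 1 time.

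AP-1 is a dimer of basic leucine zipper (bZIP) proteins. Jun proteins pair with each other or with Fos proteins, whereas Fos proteins need a Jun partner, and ATF3 can pair with itself or with Jun proteins. The subunits compete for partners, so the make-up of the family, and not only the amount of each protein, sets what a cell's AP-1 does. The classical Fos and Jun genes are induced within minutes of a stimulus and FOS RNA is short-lived, while in T cells AP-1 acts with NFAT at cytokine promoters such as that of IL2.

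The promoters of the family differ in the elements through which kinase and cAMP signals are known to reach them, and the stretches just before the start sites of 5 members are shown for that reason. They are from RefSeq, build GRCh38.p14, on the gene's own strand, and end at the base before the start site. Capitals mark matches on either strand to the AP-1 site (TGACTCA or TGAGTCA), the cAMP response element or CRE (TGACGTCA), its core (TGACG, which the full element contains on each strand), the AP-1-like octamer TGACATCA, the MEF2 site, or the TATA motif (TATAAA).

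JUN, chr1:58784048-58784197, minus strand: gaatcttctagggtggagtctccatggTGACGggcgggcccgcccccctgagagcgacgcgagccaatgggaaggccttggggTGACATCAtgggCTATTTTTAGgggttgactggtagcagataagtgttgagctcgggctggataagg

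ATF3, chr1:212565257-212565406, plus strand: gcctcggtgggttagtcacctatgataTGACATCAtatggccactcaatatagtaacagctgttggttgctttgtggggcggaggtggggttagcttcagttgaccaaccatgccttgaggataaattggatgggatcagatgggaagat

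FOSL2, chr2:28392708-28392857, plus strand: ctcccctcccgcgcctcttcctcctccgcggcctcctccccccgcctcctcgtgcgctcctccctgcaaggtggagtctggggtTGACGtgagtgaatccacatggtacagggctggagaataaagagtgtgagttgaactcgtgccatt

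JUND, chr19:18281623-18281872, minus strand: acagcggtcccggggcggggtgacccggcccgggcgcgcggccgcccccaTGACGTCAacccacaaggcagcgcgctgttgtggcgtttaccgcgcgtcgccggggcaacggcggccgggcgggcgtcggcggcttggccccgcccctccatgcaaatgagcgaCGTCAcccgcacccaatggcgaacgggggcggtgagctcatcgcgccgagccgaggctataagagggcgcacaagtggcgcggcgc

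FOS, chr14:75278678-75278827, plus strand: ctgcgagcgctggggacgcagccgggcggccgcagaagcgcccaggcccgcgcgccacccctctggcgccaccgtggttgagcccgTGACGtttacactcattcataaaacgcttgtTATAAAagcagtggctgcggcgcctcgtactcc

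In JUN the octamer lay at positions -67 to -60 from the start site and the MEF2 site at -55 to -46. The octamer is an element through which JUN protein is known to act on its own gene. ATF3 held the same octamer at -123 to -116 of the first of its 2 RefSeq windows. Whether the RNA measured here began at either of these start sites is not known. Over windows of 300 bases (250 before the start site and 50 after it), the octamer was in JUN and ATF3 and in 2.61% of all 35116 windows, and the MEF2 site was in JUN and in 1.86%. The full CRE was in JUND, at -200 to -193, and in 1.85% of windows. The perfect AP-1 site was in FOSL2, at 5 to 11 after the start site, and in 4.95% of windows. The CRE core was in the windows of 6 of the 7 genes and in 24.6% of all windows. It was in neither of the 2 ATF3 windows, and no other stretch of ATF3 was searched. The TATA motif was in JUNB, FOS and FOSB, between positions -33 and -25, in the second window of ATF3 at -230 to -225, and in 11.5% of windows. These matches describe letters in the windows and were not tested as sites. Serum response elements, at which the factor SRF acts, were not searched for. The printed stretches need not hold every element through which signals reach these genes.

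The arrays had median intensities between 71.5 and 81.1 over 53617 probe sets. Values are the linear intensities as deposited, with no detection call, so a dim gene is not described as absent. The 8 measured T-cell markers were not called between the groups, and their summed intensity was 7207 to 7233 on the untreated arrays and 6904 to 7517 on the CSH71 arrays. They include LCK and ZAP70, kinases of T-cell receptor signalling, at 1080 ± 86.4 and 1724 ± 22.0 in untreated cells (mean ± SD, n = 2). Of B-cell (3 measured), monocyte (5) and fibroblast and epithelial markers (4), 0 genes were called by limma. Only 0.047% of all genes were called, so the lack of calls in these short marker lists does not show an unchanged make-up of the cultures. No measured marker of any of these lists was at 0 on any array. The summed B-cell markers were at 707 to 822 untreated and 600 to 710 with CSH71. Epithelial EPCAM was bright in both groups (2062 ± 36.2 and 2056 ± 160). In RNA of a whole culture, a change in the number of cells expressing a gene and a change in RNA per cell cannot be told apart.

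Among the Jun genes, JUN showed the largest contrast between the groups. Its intensity was 88.7 and 126.6 on the untreated arrays and 857 and 800 on the CSH71 arrays. Both treated arrays lay far above both untreated ones, and the untreated pair was the more spread in log2 terms (a difference of 0.45 against 0.10). The untreated values lay above the array medians of 71.5 to 81.1 but, with no detection call, are not shown to be above background. The ratio of the group means was 7.70, and from the closest to the most distant arrays of opposite groups it ran from 6.32 to 9.66. On the log2(intensity + 16) scale used for all fold changes here, the difference was 2.79 ± 0.21 (SE), the highest of the 14884 genes in this fit.

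JUND, which is present in resting cells and often acts as a brake on growth, was bright before treatment. It had 1246 and 1349 on the untreated arrays and 2342 and 2265 after CSH71, with no overlap between the groups. Its ratio of means was 1.78, with 1.68 to 1.88 from the closest to the most distant arrays, and its log2 fold change was 0.82 ± 0.17. JUNB, a Jun protein that can oppose JUN at shared targets, had the smallest difference of the Jun genes. It had 609 and 677 untreated and 841 and 821 treated, a ratio of means of 1.29 and a log2 fold change of 0.37 ± 0.17. Its groups did not overlap either, and its 2 untreated arrays differed by 0.15 on the log2 scale.

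Among the Fos genes, FOSL2 stood apart from FOS and FOSB. FOSL2, also called FRA2, lacks the strong activation domain of FOS. It had 66.3 and 66.6 on the untreated arrays and 338 and 295 on the CSH71 arrays, so that the treated pair was more spread than the almost equal untreated pair. The untreated values lay below the array medians and, with no detection call, are not shown to be above background. As measured, the ratio of means was 4.76, with 4.43 to 5.10 from the closest to the most distant arrays, and the log2 fold change was 2.01 ± 0.17, the fifth highest of the genes fitted.

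FOS, the prototype immediate early gene, and FOSB, its close relative, each had 2 probe sets, and these disagreed in sign. The brighter FOS probe set had 139.7 and 109 untreated and 98.7 and 131 treated, a log2 fold change of -0.10 ± 0.21. The dimmer one had 58.5 and 87.3 untreated and 99.1 and 79.5 treated, a log2 fold change of 0.26. In each the 2 groups overlapped. The difference between the FOS groups was thus smaller than the spread between replicates in both probe sets.

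For FOSB the choice of probe set mattered more. The brighter probe set had 185 and 100.7 untreated and 129 and 130.4 treated, with overlapping groups and a log2 fold change of -0.07 ± 0.27. Its untreated arrays differed by 0.78 on the log2 scale, a gap reached or passed by 2.22% of genes. The dimmer probe set had 92.2 and 95.9 untreated and 144 and 117 treated, without overlap, and a log2 fold change of 0.41. No direction is therefore given for FOSB or FOS. Of the 623 genes with exactly 2 probe sets, 42.1% had probe sets of opposite sign, so such a disagreement is common on these arrays. Both probe sets of FOS carry 1 and the same RefSeq accession in the annotation, as do those of FOSB, and which transcripts or strands they read is not given in the sources used here.

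ATF3, a stress-induced bZIP factor that often represses, was the dimmest member. It had 30.0 and 39.3 on the untreated arrays, below the array medians, and 67.9 and 89.4 on the CSH71 arrays. The groups did not overlap, with a ratio of means of 2.27 and 1.73 to 2.98 from the closest to the most distant arrays. The log2 fold change of 0.90 ± 0.20 understates that ratio, because the added constant of 16 is large beside intensities of this size.

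**Figure D1:**
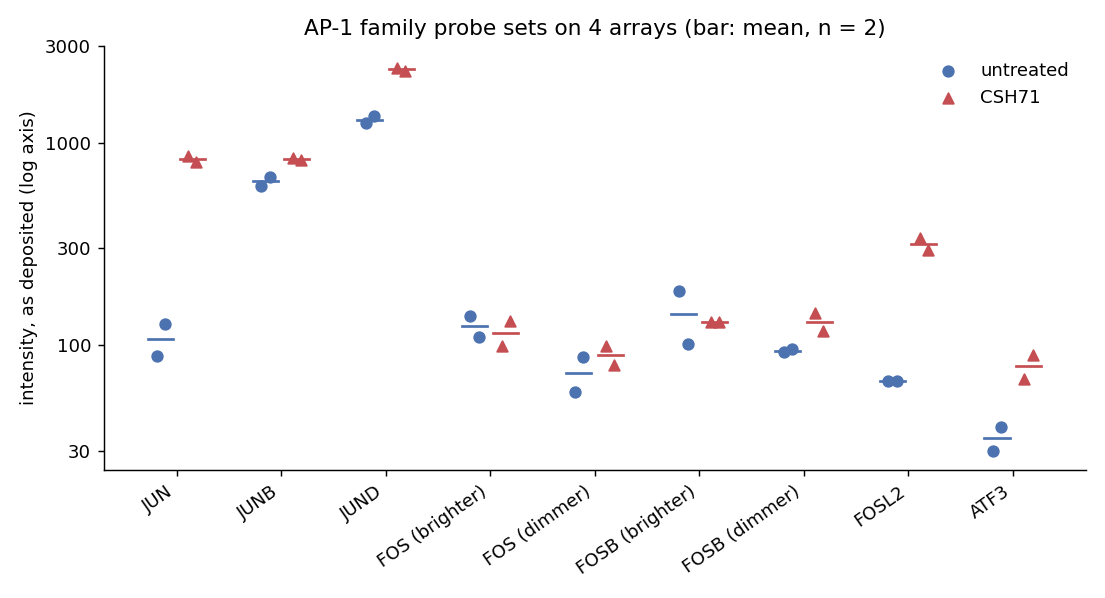
Deposited intensity (log axis) of every probe set of the 7 AP-1 genes on the 2 untreated (circles) and 2 CSH71 (triangles) arrays, with group means as bars. JUN and FOSL2 show the widest gaps between groups, from 108 to 828 and from 66.4 to 316, while the groups overlap in both FOS probe sets and in the brighter FOSB probe set.

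No filter on dim values was applied, so all 7 members were fitted. Of these, 5 had both treated arrays above both untreated arrays, an arrangement found in 15% of all genes, and 2 had overlapping groups. The median log2 fold change of the members was 0.82, against -0.01 over all genes tested. The limma fit over all genes called JUN and FOSL2 at an adjusted p under 0.05, both higher, and not the other 5, where 0.0403% of genes were called higher and 0.047% in either direction. Because these same values led to the choice of the family, nothing is read from those shares. Both calls ended without untreated replicate 1 or without untreated replicate 2 (log2 fold changes of 2.57 and 3.01 for JUN, 2.01 each time for FOSL2), and with an added constant of 1, quantile normalization or a fit of all probe sets.

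**Figure D2:**
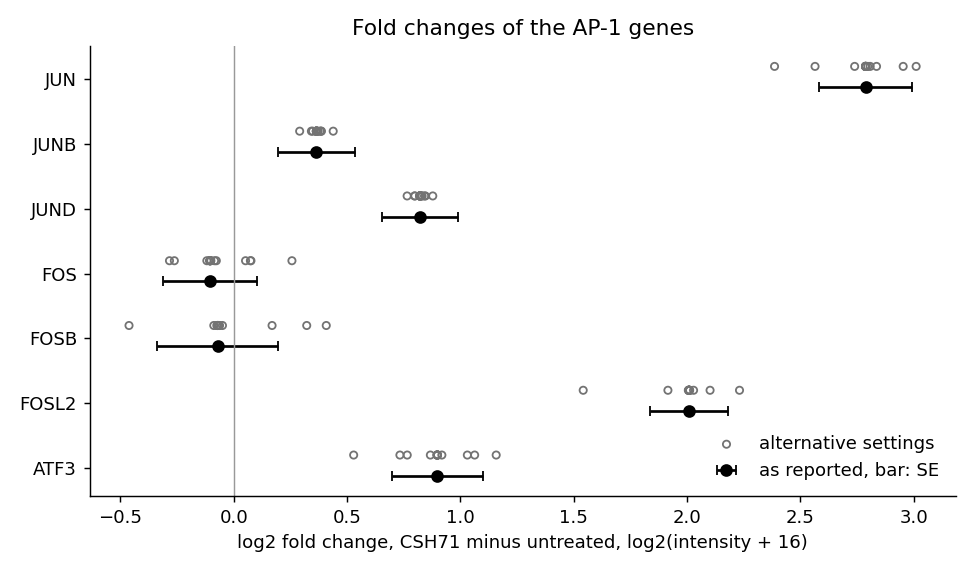
Log2 fold change of each AP-1 gene (CSH71 minus untreated, log2(intensity + 16)), as reported with its SE (filled) and under the alternative settings (open circles). JUN, JUNB, JUND, FOSL2 and ATF3 stayed above 0 in each setting that tested them, from 0.29 for JUNB to 3.01 for JUN, while FOS and FOSB lay on both sides of 0.

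The unequal changes altered the relation of the members to each other within each array. Intensities of different probe sets are not amounts of RNA on 1 scale, so a ratio between 2 genes has no meaning as a stoichiometry, and only its change between arrays is described. The intensity ratio of JUN to JUND was 0.071 and 0.094 on the untreated arrays and 0.37 and 0.35 on the CSH71 arrays, 4.36 times higher in the mean. The ratio of JUN to JUNB went from 0.15 and 0.19 to 1.02 and 0.97, 5.99 times higher. That of JUND to JUNB changed by less, from 2.05 and 1.99 to 2.78 and 2.76, 1.37 times higher. In all 3 the treated and untreated arrays were separate, so within the Jun genes the signal shifted towards JUN on both treated arrays.

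Within the Fos genes the signal shifted towards FOSL2, whichever probe set stood for FOS or FOSB. The ratio of FOSL2 to the brighter FOS probe set was 0.47 and 0.61 untreated and 3.42 and 2.25 treated. Against the dimmer FOS probe set it was 1.13 and 0.76 untreated and 3.41 and 3.71 treated. The mean ratio was 5.24 and 3.76 times higher in turn, and for FOSB it was 4.78 times higher with the brighter and 3.44 times higher with the dimmer probe set. The ratio of JUN to FOSL2 was 1.34 and 1.90 untreated and 2.54 and 2.71 treated, with 1.33 to 2.03 times between arrays of opposite groups. The ratio of ATF3 to JUN was lower with CSH71, at 0.34 and 0.31 untreated and 0.079 and 0.11 treated, although ATF3 itself was higher.

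**Figure D3:**
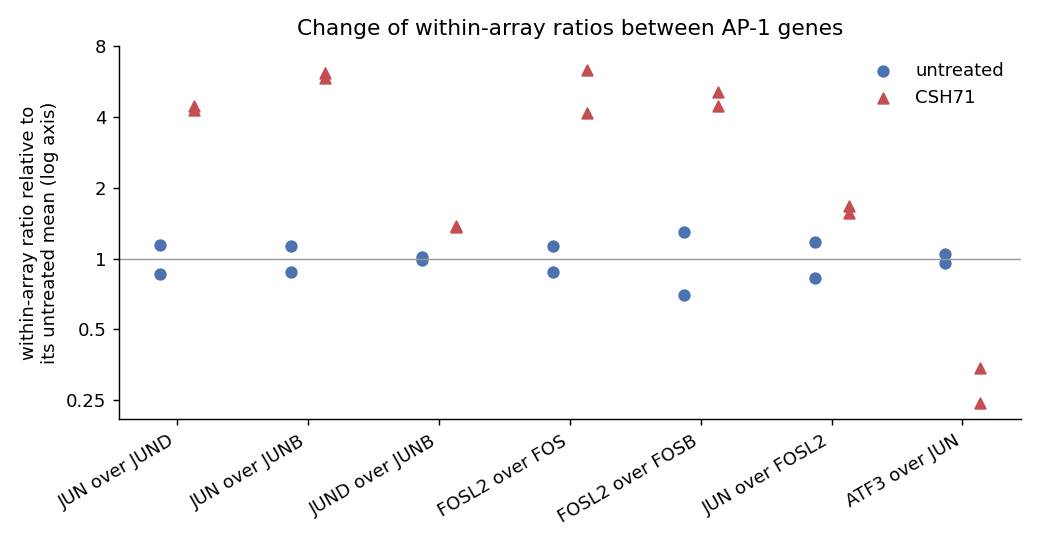
Intensity ratio between AP-1 genes within each array, divided by the mean ratio of the untreated arrays (log axis), for untreated (circles) and CSH71 (triangles) arrays. The ratios of JUN to JUND and JUNB and of FOSL2 to the brighter FOS and FOSB probe sets stand several times above their untreated mean on both treated arrays, and that of ATF3 to JUN stands below it.

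Other bZIP factors that share partners or sites with AP-1 included 1 gene with a difference of the size seen for JUN. Of 29 listed, 16 were measured, 1 was called higher by limma (0.0403% of all genes), 0 were called lower and 15 were not called. An unadjusted p under 0.05 was found for 3, where 5.1% of all genes had one. This list too was drawn up with earlier results known, so nothing is read from these shares. The median log2 fold change of the 16 factors was 0.13, and 13 had positive and 3 negative values. The called gene was CREM, a bZIP factor of the cAMP response whose isoforms include repressors. It rose from 176 and 232 to 1261 and 1127, a log2 fold change of 2.47 ± 0.20 (limma adjusted p = 0.0247). Its call ended without untreated replicate 1 or without untreated replicate 2, at log2 fold changes of 2.28 and 2.65, and, as for JUN and FOSL2, with a constant of 1, quantile normalization or all probe sets fitted. MAF, a bZIP factor that drives IL4 in helper T cells, had 69.9 and 71.5 untreated and 141 and 104 treated (0.66 ± 0.20). ATF4, the main factor of the integrated stress response and an activator of ATF3, had 3195 and 2989 untreated and 4134 and 4356 treated (0.46 ± 0.17). DDIT3, the stress factor CHOP, was at 0.33 ± 0.19. FOSL1, the closest relative of FOSL2, had 43.5 and 46.2 untreated and 33.6 and 63.6 treated, so that its groups overlapped, with a log2 fold change of 0.05. The Jun dimerization protein gene JDP2 was at 0.23 and ATF2, a partner of JUN at CRE-like sites, at 0.04. BATF, the T-cell bZIP factor, was not analysed here.

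**Figure D4:**
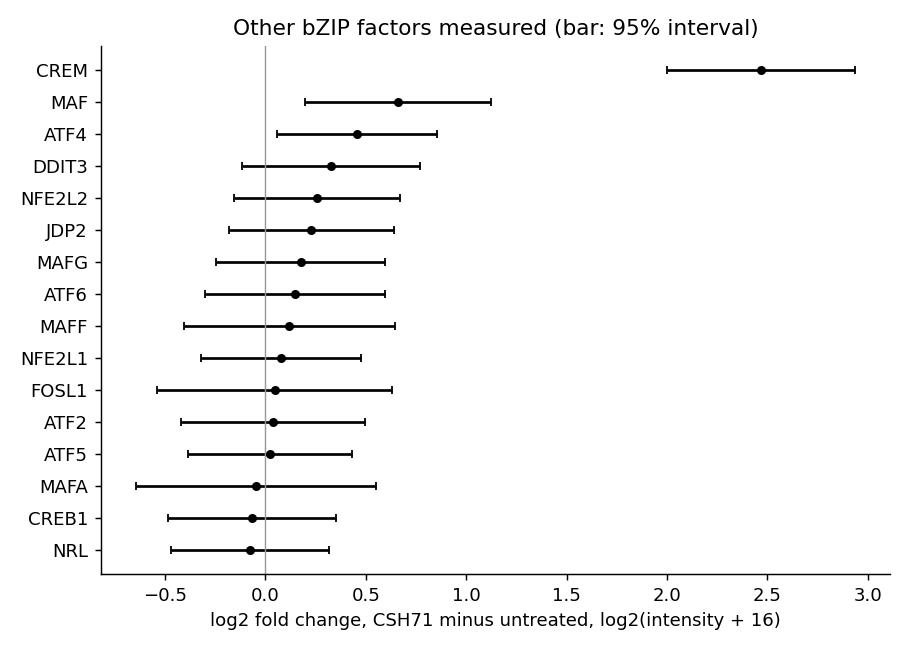
Log2 fold change (CSH71 minus untreated, log2(intensity + 16)) of the 16 other bZIP factors measured, with 95% intervals from the limma fit. CREM at 2.47 stands apart from the other 15, of which the highest is MAF at 0.66.

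RNA was also measured for the kinases that phosphorylate AP-1 subunits and for the kinases above them. Of 27 listed, 18 were measured. Of these, 0 were called in either direction by limma (0.047% of all genes) and 0 had an unadjusted p under 0.05 (5.1% of all genes). At such shares few or none would be met in a list of this size, so the counts do not show unchanged RNA of these 18 kinases. Their log2 fold changes ran from -0.28 for MAP3K5, also known as ASK1, to 0.29 for MAP3K7, also known as TAK1, with a median of -0.02. MAP3K11 was at -0.17 and MAP3K2 at 0.17, with an SE of 0.17 and 0.18 in turn. JNK2 (MAPK9), a kinase of JUN, was at 0.05, and MAPK12, which encodes p38γ, at -0.07. RNA levels give no measure of the activity of these kinases.

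Of 18 listed factors that bind AP-1 gene promoters or act as AP-1 coactivators, 12 were measured. Of these, 0 were called by limma (0.047% of all genes) and 2 had an unadjusted p under 0.05 (5.1% of all genes). Their median log2 fold change was 0.03. Those 2 were MEF2D and SRF. Each had both treated arrays above both untreated ones, an arrangement found in 4 of the 12 factors and in 15% of all genes. MEF2D, which binds MEF2 sites such as the match printed for JUN, had 1959 and 1942 untreated and 2904 and 2735 treated (0.53 ± 0.17). SRF, which acts at the serum response elements of FOS and other immediate early genes, had 1879 and 1854 untreated and 2587 and 2524 treated (0.45 ± 0.16). MEF2C was at -0.19 ± 0.22 and COPS5, a JUN coactivator, at -0.13 ± 0.18.

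Of 30 listed genes known for AP-1 sites in their control regions, 16 were measured. Of these, 2 were called higher by limma (0.0403% of all genes), 0 lower and 14 not at all. An unadjusted p under 0.05 was found for 5 (5.1% of all genes). The list was drawn up with earlier results of these data known, so nothing is read from these shares. The median log2 fold change was 0.09, and 10 values were positive and 6 negative. CD69, an early activation antigen of T cells, rose from 541 and 612 to 3016 and 3077 (2.37 ± 0.17, limma adjusted p = 0.0226). IL2, the T-cell growth factor, rose from 42.1 and 32.1 to 201 and 174 (1.94 ± 0.19, limma adjusted p = 0.0386). Both calls ended without untreated replicate 1 or without untreated replicate 2, at 2.29 and 2.46 for CD69 and 2.08 and 1.81 for IL2, and under the same 3 other settings as that of CREM. The untreated values of IL2 lay below the array medians. Neither PTGS2, which encodes cyclooxygenase-2 (1.28 ± 0.31), nor TNF (1.08 ± 0.19) was called. TNF had 8 probe sets, and its value is that of the brightest alone. The study singled out TNF from these arrays, and the direction of TNF is no independent evidence. On the other side were HMOX1, haem oxygenase, at -0.50, MMP1, a collagenase often used as a readout of AP-1, at -0.40, SPP1, osteopontin, at -0.42, and IL10, an inhibitory cytokine, at -0.36, none of them called. HMOX1 and MMP1 lay below the array medians in both groups, at 64.1 and 40.7 and at 54.1 and 37.5 in untreated and treated cells. CCND1, cyclin D1, was at -0.02 and VIM, vimentin, at -0.01.

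Likeness of pattern was measured as the distance between log2 values centred on each gene's mean over the 4 arrays. The 5 genes nearest to JUN were CREM (distance 0.33), CD69 (0.47), DUSP4 (0.66), FOSL2 (0.84) and IL2 (0.99). Those nearest to FOSL2 were DUSP4 (0.20), IL2 (0.21), SGK1 (0.38), CD69 (0.41) and EGR1 (0.43). JUN and FOSL2 thus shared DUSP4, CD69 and IL2 among their neighbours. Those nearest to ATF3 were other genes: PLXNA4 (0.10), KRTAP16-1 (0.19), AKAP5 (0.20), LRRK2 (0.20) and CLK1 (0.21). With 4 arrays the distance mostly reflects the size of the difference between the groups, and it uses the same values by which the family was chosen.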

How the data were processed

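The authors deposited 1 table of linear intensities for 4 single-sample arrays, made with Affymetrix Expression Console per the submitters' processing notes. How they were summarised, background-corrected and normalized, and the slide and scan date of each array, is not given in the sources used here. Of 53617 probe sets, 16098 had 1 symbol, 0 several and 37519 none in the platform annotation. All 16098 identifiers matched the RefSeq table of GRCh38.p14, used for names, and all 7 members matched its promoter table. In 779 genes more than 1 probe set was present, and the brightest on average over the arrays was fitted. Values were taken as log2(intensity + 16) without further normalization and compared with limma 3.58.1 (R 4.3.3) over 14884 genes as 2 group means, with 2-sided p-values adjusted by Benjamini-Hochberg. The fit was also run on simulated independent noise with added group differences. That checked only that the differences were returned on average, and it says nothing of the calls reported here. Groups and replicate numbers come from the sample titles. The number of arrays limits the precision. Figures were drawn with matplotlib 3.10.9.

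The members, the 4 gene lists, the marker lists and the alternatives were chosen with earlier results of these data known. Named are all members, the called genes of each list, otherwise its up to 4 genes of smallest p, and the 5 genes nearest to JUN, FOSL2 and ATF3. FOSL1, JDP2, ATF2, MAPK9, MAPK12, HMOX1, MMP1, SPP1, IL10, CCND1, VIM and JUN-DT were named outside this rule, after their values were seen. Alternatives were other constants, quantile normalization, median centring, removal of the dimmest 40% of genes, trend and robust priors, the mean of probe sets, all probe sets, the replicate number as a block, and each array left out. Crossed pairing and the other probe sets of FOS and FOSB were added after seeing the data.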

Additional observations from a re-analysis of the deposited data

How the results depend on the processing

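The limma call of 2 members, JUN and FOSL2, was given again with median centring, without the dimmest 40% of genes, with a robust prior, with the mean of probe sets, with the other probe sets of FOS and FOSB, and with the replicate block (2 members called, 27 genes in all). It became 3, with JUND added, with a constant of 64 or a trend prior. It became 0 with a constant of 1, quantile normalization, all probe sets or the crossed pairing (4, 5, 4 and 5 members at an unadjusted p under 0.05, beside 5.16%, 6.48%, 3.61% and 8.65% of all genes), and ran from 0 to 2 when an array was left out. Over all genes, 7 were called as reported, 33 with a constant of 64, 11 without dim genes, 143 with a trend prior, 27 with median centring, 0 to 29 with an array left out, and 0 with a constant of 1, quantile normalization, all probe sets or crossed pairing. The block and the trend prior gave an infinite prior weight. With the block this replaces each gene's variance by 1 shared value. With the trend prior it replaces each gene's variance by a value set by the gene's mean intensity. The replicate numbers are not stated to pair samples, and the replicate differences of the 2 groups correlated at -0.29 over genes. The median fold change of the members became 0.53 with a constant of 64 and 0.59 without dim genes, which removed ATF3, and ran from 0.73 to 0.88 with an array left out. FOS turned to 0.076 and FOSB to 0.17 with the mean of probe sets, and to 0.26 and 0.41 with their other probe sets. With an array left out, FOS ran from -0.28 to 0.074 and FOSB from -0.46 to 0.32, positive without untreated replicate 1 (0.052 and 0.32) and, for FOS, without CSH71 replicate 1. The cause was not tested. No other member changed sign. No detection call is given, which limits what can be said of untreated ATF3 and FOSL2, both below the array medians. It also limits what can be said of untreated JUN, and of FOS and FOSB.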

Other observations

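The long noncoding RNA gene JUN-DT starts close to JUN on the opposite strand in the RefSeq table. Its intensity was 55.1 and 75.7 on the untreated arrays and 50.0 and 49.9 on the CSH71 arrays, a log2 fold change of -0.29 ± 0.19 that limma did not call (adjusted p = 0.999). Its value was thus not higher on the arrays where JUN was 6.32 to 9.66 times brighter. Both treated arrays lay below both untreated ones, an arrangement found in 2470 of 14884 genes. The values of 55.1, 50.0 and 49.9 were under the lowest array median of 71.5 and, with no detection call, are not shown to be above background.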
